A study of Mus musculus with 16 samples.

Results

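Hepatocytes make most of the acute phase proteins and iron carriers of plasma. Acute phase proteins are secreted into plasma in amounts that change with inflammation, driven mainly by interleukin-6 through STAT3 and by C/EBP and NF-kB factors. Iron reaches cells bound to transferrin, is taken up through the transferrin receptor and leaves cells through ferroportin, which the liver hormone hepcidin removes from the cell surface. The promoters described here belong to 10 such genes, and the question was which fragments of chromatin they contacted in mouse liver and how those contacts differed over the day. Serum amyloid A1 (Saa1), serum amyloid A4 (Saa4), haptoglobin (Hp), C-reactive protein (Crp), lipocalin 2 (Lcn2) and haemopexin (Hpx) were taken as acute phase genes. Hepcidin (Hamp), transferrin (Trf), the transferrin receptor (Tfrc) and ferroportin (Slc40a1) were taken as iron genes.

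Promoter Capture Hi-C (P-CHi-C) joins the ends of crosslinked HindIII fragments that lie close together and enriches for products that hold a promoter fragment, the bait. It was run on livers of wild type male C57BL/6 mice, labelled as 8 weeks old and fed ad libitum under a cycle of 12 h light and 12 h dark. By the study's methods 8 weeks was the age at the start of 2 weeks in this cycle. The 4 groups were the zeitgeber times (ZT, hours after lights on) ZT0, ZT6, ZT12 and ZT18, and every timepoint had 3 pools of 2 livers, with 4 samples because pool A was run on 2 lanes. The pools had been merged before calling, so each timepoint gave 1 list, no value has a replicate error, and no difference between timepoints could be tested. The measure is the CHiCAGO score of a fragment pair, which sets its reads against those expected from distance and noise. A pair is listed from a score of 5, so absence from a list means a score below 5 or no score, not an absence of contact. Names of timepoints follow the sample labels. The totals in the study's own overview put the lists labelled ZT6, ZT12 and ZT18 in another order, so a statement on those timepoints rests on the labels. Whole liver was used, in which a contact in few cells and a weak contact in many cannot be told apart. The lists hold no RNA levels against which the tissue label could be checked.

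A contact was counted for a gene when an end of the pair lay on the bait fragment that held its gene start in the mm9 annotation. All 10 genes had such a bait, and each was the only gene named on it. Their contacts numbered 185 of the 247177 interactions of the 4 lists. By timepoint they numbered 129 (ZT0), 124 (ZT6), 129 (ZT12) and 125 (ZT18), while the whole lists held between 146262 (ZT0) and 154775 (ZT6) interactions. The number at each time of day was therefore nearly level for the genes as a group. The baits and the fragments they contacted, by coincidence also 185, began and ended at a HindIII site of the mm9 reference and had 0 such sites inside.

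**Figure D1:**
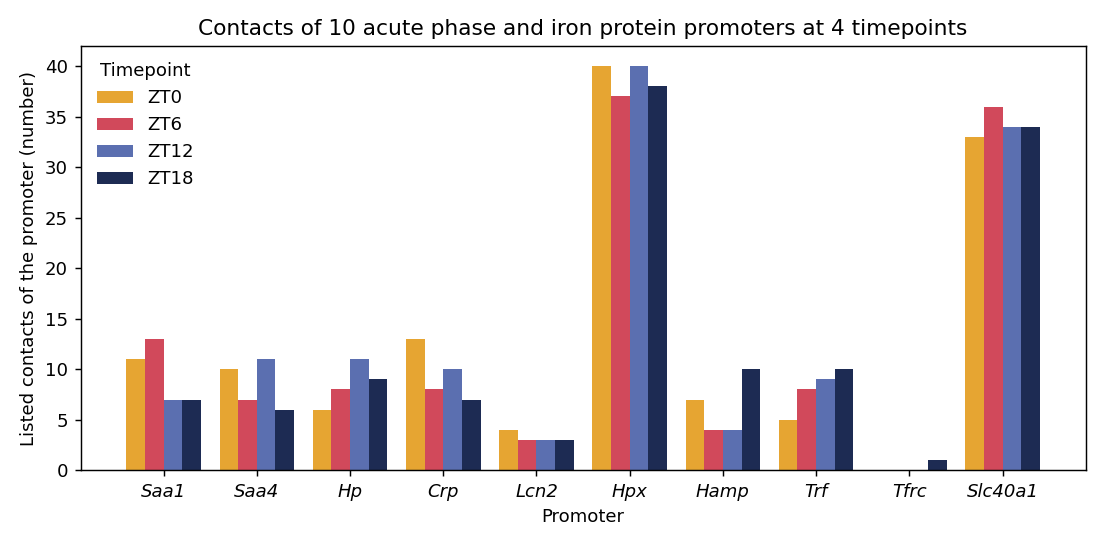
Number of listed contacts (vertical axis) of each of 10 promoters at 4 timepoints (colours); each bar is 1 merged list, without replicate error. Hpx has 37 to 40 contacts and Slc40a1 33 to 36 at every timepoint, while Tfrc has 1 contact, at ZT18.

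The promoters differed widely in how much they contacted. Hpx had 55 contacts and Slc40a1 38, Crp 18, Saa1, Saa4 and Hamp 14 each, Hp 13, Trf 11, Lcn2 7 and Tfrc 1. The median bait of the lists had 9 contacts, with quartiles of 4 and 21, so 8 of the 10 genes lay above the median. Hpx and Slc40a1, which bind haem in plasma and export iron from cells, together held more contacts than the other 8 promoters.

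Contacts kept through the day were common among these promoters, but this came from Slc40a1 and Hpx. Of the 185 contacts, 82 were listed at all 4 timepoints, or 44.3% (95% Wilson interval 37.4 to 51.5%), beside 32.5% of all interactions. Without Slc40a1 and Hpx the share was 25 of 92, or 27.2% (19.1 to 37.0%), and the mean of the shares of the 10 promoters was 32.4%. The intervals cover counting error only, and contacts of a promoter with neighbouring fragments are not independent. A further 51 contacts (27.6%) were listed at 1 timepoint only, beside 35.2% of all interactions. Of the 121 contacts of acute phase genes 36.4% were listed at all 4 timepoints (28.3 to 45.2%), and of the 64 of iron genes 38 (59.4%), 31 of them of Slc40a1. When a contact also counted as listed at a timepoint where the same bait contacted a fragment within 10 kb, 75.1% of the members' contacts and 68.5% of the contacts of all baits were present at all 4. Such a tolerance can only raise these shares, and what lay behind the rise was not tested.

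**Figure D2:**
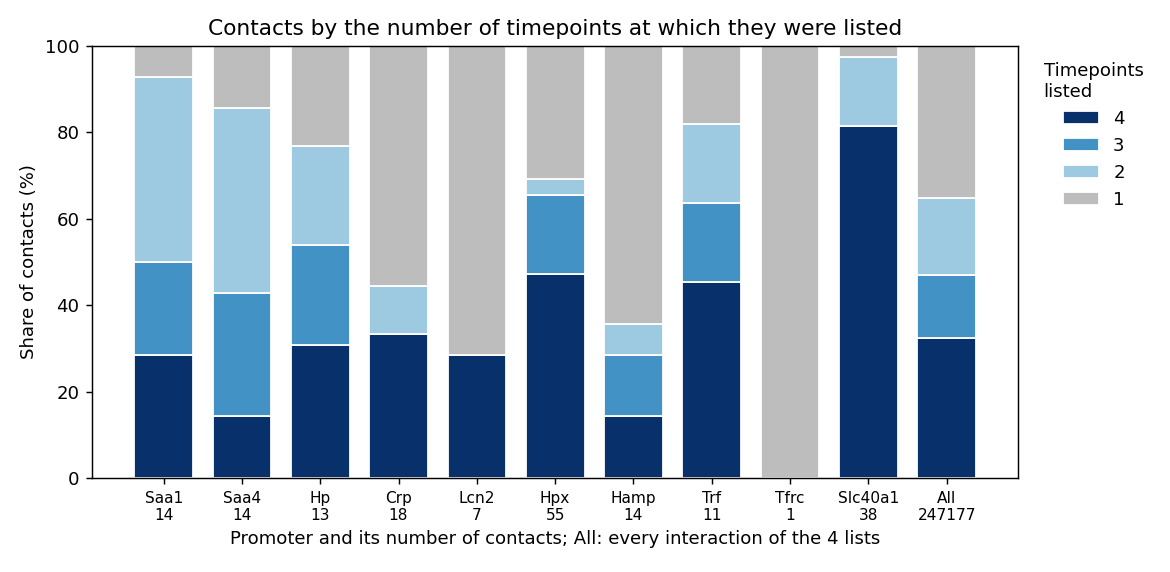
Share of contacts (vertical axis, %) of each promoter listed at 1, 2, 3 or 4 timepoints (shades), with the number of contacts under each name; the last bar holds all 247177 interactions. Slc40a1 has 81.6% and Hpx 47.3% of its contacts at all 4 timepoints, and Saa4 and Hamp 14.3%.

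The contacts were short for a promoter in these lists. The median distance between fragment midpoints was 84.3 kb (95% interval from order statistics 64.0 to 105 kb) against 162 kb over all interactions. Hp and Lcn2 had medians of 409 and 190 kb, above the 162 kb, and the others had medians below it. All 185 lay within a chromosome, and 44 of them (23.8%, 18.2 to 30.4%) spanned over 150 kb, beside 53.3% of all interactions within a chromosome. These were 41 of the 121 contacts of acute phase genes (33.9%) and 3 of the 64 of iron genes (4.69%). Another bait was at the far end of 37 contacts (95% interval 14.9 to 26.3%). Over all interactions 15.4% had a bait at both ends, with each such pair counted once. Counted from the side of each bait, as for the members, such a pair counts at both ends, which gives a higher share. The 38058 such pairs, each counted at both ends, then stand among 285235 contacts of all baits. The 15.4% is therefore too low a background for the members, and no excess can be read from it. Of the far ends, 41 (22.2%) held a gene start, 43 (23.2%) an exon, 22 (11.9%) an intron alone and 79 (42.7%) no annotated gene. The corresponding shares over the contacts of all baits were 28.1%, 24.2%, 21.2% and 26.5%, so fragments without a gene were more frequent here. Slc40a1 held 18 of the 79 among its 38 contacts, Hpx 21 among 55 and Crp 13 among 18. The excess was not confined to them, with 7 of 13 for Hp, 5 of 11 for Trf, 6 of 14 for Saa4 and 5 of 14 for Saa1. Lower shares were found for Hamp (3 of 14), Lcn2 (1 of 7) and Tfrc (0 of 1).

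High scores were likewise concentrated. A score of at least 10 at some timepoint was reached by 50 contacts (27.0%), beside 21.5% of all interactions, and 26 of the 50 belonged to Slc40a1 and 13 to Hpx. Among the 49 that were also listed at all 4 timepoints, the highest score was at least 1.5 times the lowest in 20, beside 51.2% of all such interactions. It was at least 2 times the lowest in 1, beside 11.2%. The median of this ratio was 1.39 for the members and 1.51 for all such interactions. The low shares came from Slc40a1, with 8 of 26 contacts reaching a ratio of 1.5, and Hpx, with 4 of 13. Elsewhere Hp and Trf reached it in 2 of 2 each, Crp in 2 of 3, Saa1 and Hamp in 1 of 1 each and Saa4 in 0 of 1.

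Slc40a1 encodes ferroportin, the known cellular iron exporter. Its promoter had the contacts with the highest scores and the longest run of contacts kept at every timepoint. The gene start lies at position 45982439 on the minus strand of chromosome 1, on the bait chr1:45981349-45984935. Of its 38 contacts 35 lay downstream, and 31 (81.6%, 66.6 to 90.8%) were listed at all 4 timepoints. Among the 1565 baits with 30 to 45 contacts the median share at all 4 was 34.1%, and 0.256% of them had a share as high. The counts were 33 (ZT0), 36 (ZT6), 34 (ZT12) and 34 (ZT18), a range of 3 where baits with a similar number of contacts had a median range of 7.

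A window 62.1 to 127.4 kb downstream held 23 of these contacts, and all 23 were listed at 4 timepoints. Where the window ends bears on this count. The next fragment beyond it, 132.3 kb away, was listed at ZT0 alone, and the next on its near side, 55.4 kb away, at 4 timepoints. The highest score of all 10 promoters was in this window, 102.8 kb away on chr1:45879186-45881483, with 35.26 (ZT0), 49.0 (ZT6), 40.06 (ZT12) and 43.27 (ZT18). This fragment holds an exon of Wdr75, which encodes a nucleolar protein of ribosome biogenesis. The 4 contacts next in rank adjoined it or each other. The fragment 99.5 kb away, without a gene, scored 32.87, 43.83, 34.02 and 33.95 in the order of the timepoints. The fragment 97.2 kb away, also without a gene, scored 33.59, 32.37, 39.03 and 22.16. Those 105.2 and 107.6 kb away, on Wdr75 exons, scored 29.74 to 35.69 and 28.85 to 35.62. Together these 5 fragments form a single stretch around the 3′ end of Wdr75, with lower scores on both sides and a smaller peak of 24.51 at ZT6 69.1 kb away, where the gene model Gm5526 starts.

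The fragment 97.2 kb away is short enough to be shown whole, as the piece of mm9 sequence that the Slc40a1 promoter contacted with a score of up to 39.03; capitals mark the HindIII sites at its ends (chr1:45885838-45886133, plus strand).
Slc40a1 contact, 296 bases: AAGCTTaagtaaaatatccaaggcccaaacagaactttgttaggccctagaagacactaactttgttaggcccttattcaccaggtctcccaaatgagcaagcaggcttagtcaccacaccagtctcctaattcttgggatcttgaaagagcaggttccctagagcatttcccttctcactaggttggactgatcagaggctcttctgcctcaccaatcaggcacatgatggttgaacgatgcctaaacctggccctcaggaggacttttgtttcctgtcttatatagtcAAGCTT

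Of the 38 contacts 15 lay on Wdr75, but its gene start was contacted at ZT0 alone, with a score of 5.39. A contact 1804.7 kb away on an intron of Bivm was listed at ZT12 (5.09) and ZT18 (5.14). Of the 31 contacts at all 4 timepoints, 18 had their highest score at ZT6, 6 at ZT0, 4 at ZT12 and 3 at ZT18. Over all interactions listed at 4 timepoints, 26.1% were highest at ZT6. Contacts of 1 promoter with adjoining fragments are not independent, and this count was not tested. The baits with the most similar contacts were those of the gene models Gm3852 and Gm4776, each sharing 14 fragments with Slc40a1, which were all 14 of their contacts and 36.8% of those of Slc40a1. The Wdr75 bait shared 4 fragments, 10.5% of those of Slc40a1.

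Hamp encodes hepcidin, whose transcription is known to respond to iron through BMP and SMAD signalling and to interleukin-6 through STAT3. Its highest-scoring contact was with the bait 17.1 kb upstream that holds the start of Usf2, a basic helix-loop-helix factor that binds E-boxes, along with the gene models Gm17077 and Gm4673. The score was 14.29 (ZT0), 17.36 (ZT6), 24.24 (ZT12) and 24.02 (ZT18), lower at the former pair of timepoints than at the latter. Of 2534 interactions at a distance within 10% of this one, 98.11% had a lower highest score. Each contact ranked in this way was picked as the highest of its promoter, so a high rank follows in part from the choice. The other contact listed at all 4 timepoints was with an exon of Cd22, a B cell receptor gene, with 5.72, 6.06, 6.24 and 6.81 at 71.0 kb.

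The number of Hamp contacts was 7 (ZT0), 4 (ZT6), 4 (ZT12) and 10 (ZT18). Of the 14 contacts 9 were listed at 1 timepoint only, 5 of them at ZT18. Baits with a similar number of contacts had a median range of 4 over the timepoints and 24.0% of them a range of at least 6, as Hamp had. Contacts below a score of 10 included the start of Ffar3, a short-chain fatty acid receptor gene, at ZT12 (5.63) and ZT18 (7.87), the bait of Fxyd7 and Fxyd1 at ZT0 (5.15), ZT12 (7.42) and ZT18 (5.07), and another Cd22 exon at ZT0 (5.16), ZT6 (7.15) and ZT18 (7.25). The Usf2 bait also holds an exon of Lsr, a lipoprotein receptor gene. A further fragment with an Lsr exon was contacted at ZT18 alone with 7.21. All 14 fragments were also contacted by the bait of Fam187b, where they were 29.8% of its 47, and 9 by the bait of Mag and Hamp2 (64.3% of those of Hamp, and 9 of its own 30). The bait of Cd22 contacted 10 of the 14, out of 39 of its own. The Hamp and Hamp2 baits share 6 aligned stretches of at least 1000 bases with 91.9 to 98.3% identity, the longest of 1940 bases. Reads from such stretches are hard to place uniquely, and how this touched the counts was not tested.

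The 150 bases before the start of Hamp are shown with a match to a STAT motif in capitals, since STAT3 is known to act on this promoter. This and the promoter sequences that follow are RefSeq windows, tabled for GRCm38.p6 and found without a mismatch in mm9, here at chr7:31729049-31729198 (minus strand). The gene record of the annotation used starts 12 bases from the RefSeq start.
Hamp: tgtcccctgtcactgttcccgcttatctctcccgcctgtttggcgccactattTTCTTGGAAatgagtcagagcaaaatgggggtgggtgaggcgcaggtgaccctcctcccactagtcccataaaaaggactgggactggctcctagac

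Trf encodes transferrin, the iron carrier of plasma. Its contacts were short, with 7 of 11 within 25 kb upstream and 5 of these 7 at all 4 timepoints. The highest was with a fragment 18.5 kb upstream without a gene, scoring 6.52 (ZT0), 8.04 (ZT6), 12.42 (ZT12) and 9.59 (ZT18). The fragments 12.8 and 11.7 kb upstream scored 7.11, 7.05, 11.3 and 10.2, and 5.19, 6.8, 9.24 and 9.05. All 3 were highest at ZT12 and lower at ZT0 and ZT6 than at ZT12 and ZT18. An exon of 1300017J02Rik 19.9 kb away scored 7.23, 7.11, 7.49 and 9.04, and a fragment 17.4 kb away 6.75, 7.69, 6.51 and 7.94, with the highest at ZT18 in both.

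The number of Trf contacts was 5 (ZT0), 8 (ZT6), 9 (ZT12) and 10 (ZT18). Its range of 5 was reached by 27.4% of baits with a similar number of contacts. The bait with the starts of 1300017J02Rik and of Topbp1, which acts in DNA replication and its checkpoint, was listed at ZT6 (7.25), ZT12 (6.17) and ZT18 (7.64) at 64.3 kb. The highest score at 1 timepoint only was 5.37 at ZT18. The contacts were most like those of Srprb, a subunit gene of the signal recognition particle receptor, with 8 of the 11 Trf fragments among the 52 of that bait. The bait of 1300017J02Rik and Topbp1 followed with 5, out of 35 of its own.

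Tfrc encodes transferrin receptor 1, through which cells take up iron-loaded transferrin. Its bait had 1 contact, with an intron of Zdhhc19 54.4 kb upstream at ZT18, with a score of 6.05. Of all baits 8.87% had 1 contact. The gene start at 32609006 lies 33 bases from the end of the bait at 32609039, so that nearly all of the gene lies beyond it, as does 1 of its RefSeq starts (32609208), and the fragment that adjoins there was in none of the lists.

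**Figure D3:**
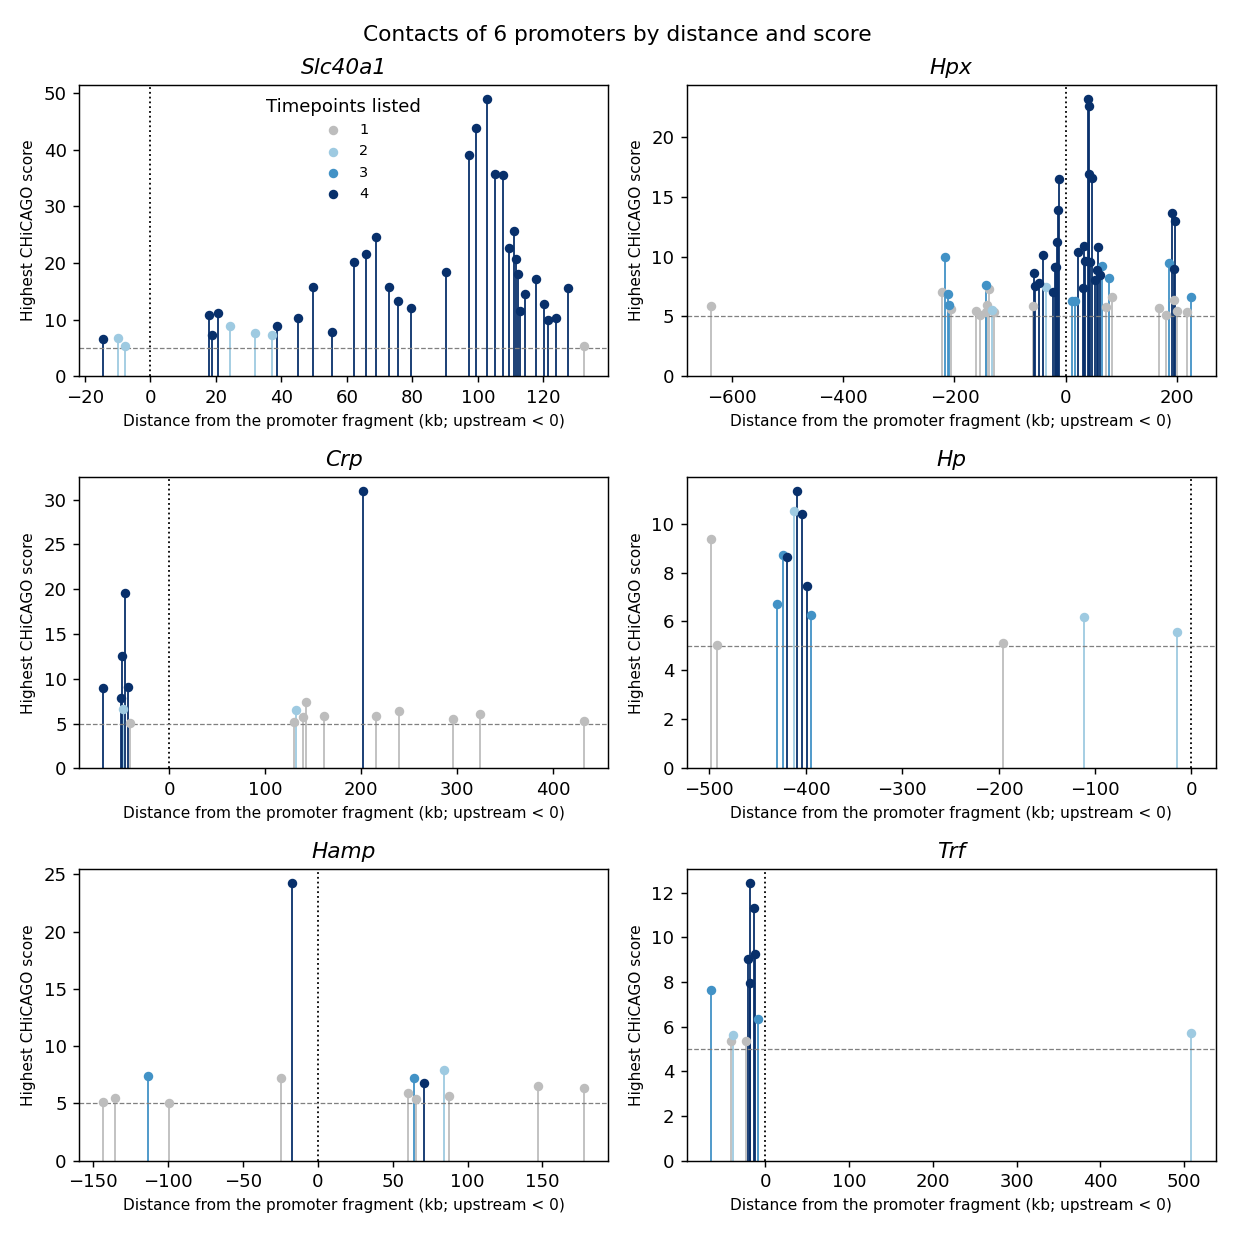
Highest CHiCAGO score over 4 timepoints (vertical axes) against signed distance in kb from the promoter fragment (horizontal axes, upstream below 0) for the contacts of 6 promoters; shade gives the number of timepoints at which each was listed, and the dashed line is the minimum of 5. The Slc40a1 contact 1804.7 kb away is outside the panel. Slc40a1 contacts rise to 49.0 at 102.8 kb, Crp has a single high contact of 30.96 at 201.6 kb, and 8 of 13 Hp contacts lie 395 to 430.3 kb upstream.

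Hpx encodes haemopexin, the plasma carrier of free haem. Its bait of 15555 bases (chr7:112736973-112752527, gene start at 112748630 on the minus strand) had the most contacts of the 10 promoters, 40 (ZT0), 37 (ZT6), 40 (ZT12) and 38 (ZT18). The range of 3 compares with a median range of 9 among baits with a similar number of contacts. Of the 55 contacts, 28 lay within 70 kb, of which 23 were listed at all 4 timepoints. Of the 24 that lay over 100 kb away, 3 were.

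The highest-scoring contact was with the bait holding the start of Smpd1, which encodes acid sphingomyelinase, 40.1 kb downstream: 18.05 (ZT0), 18.04 (ZT6), 23.23 (ZT12) and 18.96 (ZT18). Of the 4 fragments next to it on the side away from Hpx, all without a gene, that 42.5 kb from Hpx reached 16.95, that 43.5 kb away 9.53 and that 47.6 kb away 16.63. The one 43.1 kb away scored 18.72, 17.57, 22.61 and 14.32. On the other side an intron of Trim3, a ubiquitin ligase gene, scored 16.52, 13.11, 15.15 and 11.95 at 11.1 kb. Contacts were found on both sides, 26 upstream and 29 downstream.

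Other gene starts reached at 3 or 4 timepoints lay on both sides. The start of Apbb1, an adaptor of the amyloid precursor protein, scored 8.72 to 10.42 at 22.8 kb, and that of Trim3 scored 6.84 to 10.14 at 39.7 kb. The bait with the starts of Arfip2, Fxc1, Dnhd1 and SNORA43 scored 5.51 to 7.83 at 48.2 kb. Further away, Fam160a2 scored 6.66, 12.97, 9.28 and 8.21 at 197.4 kb and Cnga4, an olfactory channel subunit, 13.63, 11.13, 7.39 and 8.73 at 190.9 kb. The start of Mrpl17, a mitochondrial ribosomal protein gene, 216.5 kb away, was absent at ZT0 and scored 9.58, 9.95 and 8.38 afterwards. The highest score listed at 1 timepoint only was 7.34 at ZT12, on the bait of Rrp8 and Ilk. The contacts of Hpx were most like those of the Arfip2 bait, with 46 shared fragments (83.6% of those of Hpx, 59.0% of those of Arfip2), followed by Smpd1 with 25 (45.5% and 86.2%) and by Tpp1, a lysosomal peptidase gene, with 32 (58.2% and 60.4%). Of the 26 Hpx contacts at all 4 timepoints 14 were highest at ZT12, where 25.6% of all such interactions were highest.

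The 150 bases before the starts of the pair are shown because they lie on the fragments that the highest-scoring Hpx contact joins. They are RefSeq windows found in mm9 at chr7:112748631-112748780 (minus strand) and chr7:112702724-112702873 (plus strand).
Hpx: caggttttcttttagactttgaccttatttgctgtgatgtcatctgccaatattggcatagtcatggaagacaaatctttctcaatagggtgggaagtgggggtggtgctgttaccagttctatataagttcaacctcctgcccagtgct
Smpd1: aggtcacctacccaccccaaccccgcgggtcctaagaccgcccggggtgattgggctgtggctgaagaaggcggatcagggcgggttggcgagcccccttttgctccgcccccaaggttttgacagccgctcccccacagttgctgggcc

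Hp encodes haptoglobin, the plasma carrier of free haemoglobin. Its promoter (bait chr8:112101697-112106501) had the longest contacts of the group, with a median of 409 kb and 11 of 13 over 150 kb. Of the 13 contacts 8 lay within 50 kb of the start of Tat, the gene of tyrosine aminotransferase, a liver enzyme induced by glucocorticoids, at 395 to 430.3 kb upstream. The fragment with the Tat start, 408.9 kb away, scored 6.86 (ZT0), 5.93 (ZT6), 11.33 (ZT12) and 7.1 (ZT18). Of interactions at similar distances 89.11% scored lower than this contact, which was picked as the highest of Hp.

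Of the 8 contacts around Tat, 4 had their highest score at ZT12, 2 at ZT6 and 2 at ZT18. Besides the Tat start, those highest at ZT12 were the fragments 395 kb (6.28), 398.4 kb (7.43) and 430.3 kb (6.71) away. Of the 8 contacts, the 4 listed at all 4 timepoints were highest at ZT12 in 2, at ZT6 in 1 and at ZT18 in 1. Over all such interactions 25.6% were highest at ZT12. Contacts with neighbouring fragments are not independent, and these counts were not tested. The fragment 403.7 kb away, without a gene, scored 6.8, 10.39, 6.43 and 5.24, and an intron of Tat was listed at ZT6 (10.53) and ZT18 (5.31). A fragment 423.4 kb away was listed from ZT6 on with 5.33, 7.75 and 8.71. Zfp612, a zinc finger gene 498.2 kb away, was contacted at ZT12 alone with 9.36, the highest score of any member contact listed at a single timepoint. The contact counts were 6, 8, 11 and 9, a range of 5 that 35.6% of baits with a similar number of contacts reached. The bait of Tat had the contacts most like those of Hp, with 7 fragments in common (53.8% of the 13 of Hp, and 7 of the 14 of Tat), followed by Zfp612 with 6 and Marveld3 with 3.

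Crp encodes C-reactive protein, a pentraxin that in mice is a weak acute phase reactant. Its highest-scoring contact joined it to Apcs, the gene of serum amyloid P component, the related pentraxin that is the major acute phase form in mice. The Apcs bait lies 201.6 kb downstream at chr1:174824942-174836977. The score was 30.96 (ZT0), 15.35 (ZT6), 26.64 (ZT12) and 29.03 (ZT18), lowest at ZT6 and close together at the other times. Of 22691 interactions at a similar distance 99.05% scored lower, and their median was 6.97. The contact was picked as the highest of Crp, which favours a high rank. The ratio of 2.02 between highest and lowest score was the largest of the 49 member contacts that reached 10 and were listed at all 4 timepoints. Of all contacts of the members this was the only one with a gene of the acute phase, signalling and iron lists described below.

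The other lasting Crp contacts lay on the opposite side, 43.0 to 68.4 kb upstream. The fragment 46.3 kb away scored 15.72, 16.39, 12.67 and 19.56 from ZT0 to ZT18, that 49.1 kb away 10.74, 12.5, 11.7 and 10.48, and that 43.0 kb away 8.74, 9.09, 8.76 and 7.61. None of these holds an annotated gene, while the bait of Dusp23, a phosphatase gene, 68.4 kb away, scored 8.95, 6.32, 6.54 and 5.37. Of the 7 contacts under 70 kb 5 were listed at all 4 timepoints, whereas of the 11 over 100 kb Apcs was the 1 so listed. Single-timepoint contacts made up 10 of the 18, 5 of them at ZT0, and the highest was 7.45 at ZT12 on the bait of a U6 gene. By the share of the pooled fragments the most similar baits were Olfr16, with 6 in common (33.3% of those of Crp and 37.5% of its own), and the U6 bait, with 5 (27.8% and 45.5%). Apcs itself shared 15 fragments, 83.3% of those of Crp and 19.7% of its own 76.

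The windows of 150 bases before the starts of the pair, which coincide in RefSeq and in the annotation used, lie at chr1:174628037-174628186 (plus strand) and chr1:174825186-174825335 (minus strand) in mm9.
Crp: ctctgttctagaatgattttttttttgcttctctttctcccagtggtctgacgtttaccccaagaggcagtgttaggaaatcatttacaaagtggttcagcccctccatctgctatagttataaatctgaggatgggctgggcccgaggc
Apcs: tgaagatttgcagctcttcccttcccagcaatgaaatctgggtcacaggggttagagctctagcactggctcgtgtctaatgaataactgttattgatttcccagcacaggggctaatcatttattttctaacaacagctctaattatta

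Saa1 encodes a strongly induced acute phase apolipoprotein of high density lipoprotein, and Saa4 the form made constitutively. Their baits adjoin on chromosome 7, at chr7:53989595-54000480 (Saa1) and chr7:53987620-53989594 (Saa4), and a single HindIII site parts them. The 66 bases around this site are shown because they mark the border between the captured ends, with the site in capitals (mm9 chr7:53989564-53989629, plus strand). The side of Saa1 begins with a run of AT repeats.
Saa4 and Saa1 border: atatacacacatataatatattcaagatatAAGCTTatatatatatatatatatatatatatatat

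Both promoters had 14 contacts, of which 10 were with the same fragments (71.4% of each). The highest-scoring for both was the bait that holds the start of the gene record of Ldha, which encodes the lactate dehydrogenase subunit of glycolytic tissues, 102.8 kb from Saa1 and 109.2 kb from Saa4. Saa4 scored 11.3 (ZT0), 10.68 (ZT6), 8.92 (ZT12) and 10.08 (ZT18) there. Saa1 scored 10.23, 7.99, 5.7 and 7.34, also highest at ZT0 and lowest at ZT12. Since the baits adjoin, these are not independent measurements. Among interactions at similar distances 80.46% scored lower than the Saa4 and 75.36% lower than the Saa1 contact. Both contacts were picked as the highest of their promoter. The RefSeq starts of Ldha, at 54101174 and 54102452, lie on the next fragment (chr7:54100086-54102484), which was no bait. Saa1 contacted it at ZT6 (6.79) and ZT18 (7.96) and Saa4 at ZT12 (5.93).

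**Figure D4:**
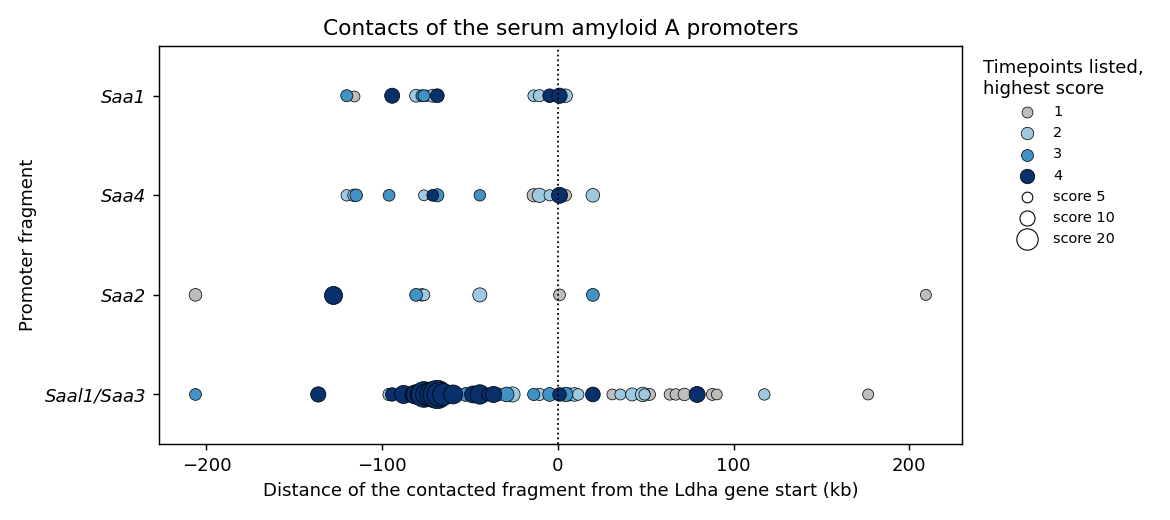
Contacts of 4 serum amyloid A baits (rows) by distance of the contacted fragment from the Ldha gene start in kb (horizontal axis, 0 at the dotted line); size gives the highest score and shade the number of timepoints listed, and 1 contact each of Saa2 and Saal1/Saa3 beyond 250 kb is not drawn. Saa1 and Saa4 share 10 fragments, among them the dark circle at Ldha (10.23 and 11.3).

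Most of the remaining upstream contacts lay around Hps5, a gene of lysosome-related organelle formation, or around Ldha. Downstream contacts, on fragments without a gene, numbered 2 for Saa1 (14.2 and 18.3 kb, at most 6.37) and 3 for Saa4 (6.5 to 11.9 kb, at most 6.88). Saa1 contacted a fragment 7.5 kb upstream without a gene with 9.96, 9.88, 8.44 and 9.08, an Hps5 intron with 7.1, 6.91, 7.05 and 8.31, and a fragment 97.1 kb away without a gene with 7.3, 6.11, 8.16 and 7.27. For Saa4 the same Hps5 intron was listed at ZT0 (5.59), ZT12 (6.64) and ZT18 (7.57), and the bait with the starts of Hps5 and Gtf2h1, a TFIIH subunit gene, from ZT6 on with 5.08, 5.81 and 5.64. Saa4 also contacted the start of Gm5331 at ZT0 (8.96) and ZT12 (5.58) and that of Ldhc, the testis form of lactate dehydrogenase, at ZT0 (8.12) and ZT18 (7.17). A fragment 94.5 kb away without a gene was listed for Saa4 at ZT12 alone (7.63).

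The number of contacts differed between the adjoining promoters from time to time. Saa1 had 11 (ZT0), 13 (ZT6), 7 (ZT12) and 7 (ZT18), and Saa4 10, 7, 11 and 6. The ranges of 6 and 5 stand beside a median range of 4 among baits with a similar number of contacts. Ranges at least as large were found in 24.0% (Saa1) and 39.4% (Saa4) of those baits. The highest number was at ZT6 for Saa1 and at ZT12 for Saa4, although their fragments were largely the same. Besides each other, the Ldha bait was most similar in its contacts, sharing 7 fragments with Saa1 and 9 with Saa4 of its own 22. Neither promoter was listed with Saa2 or Saa3. The bait of Saal1 and Saa3 contacted 12 of the 14 Saa1 fragments and 11 of the 14 Saa4 fragments, out of 48 of its own. The Saa1 and Saa2 baits share a stretch of 3197 aligned bases with 96.4% identity, and the effect of this on the reads kept was not tested. Only baits on the chromosomes of the 10 genes were searched for such stretches. Among these, Hamp alone of the other 8 promoters had a bait with a stretch of such similarity to another bait.

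The window before the Saa4 start, with the nearer C/EBP match in capitals, and that before the Saa1 start lie at chr7:53987974-53988123 and chr7:53998351-53998500 (mm9, minus strand). The RefSeq start of Saa4 lies 60 bases upstream of the start of the gene record.
Saa4: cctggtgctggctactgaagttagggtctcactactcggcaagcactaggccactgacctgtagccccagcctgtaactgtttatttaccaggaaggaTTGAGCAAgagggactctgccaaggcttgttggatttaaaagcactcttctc
Saa1: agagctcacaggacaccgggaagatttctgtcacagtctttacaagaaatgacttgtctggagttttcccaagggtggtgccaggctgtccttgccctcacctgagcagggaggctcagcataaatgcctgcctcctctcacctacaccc

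Lcn2 encodes lipocalin 2, which binds bacterial siderophores and so withholds iron. All 7 contacts lay upstream, 106.6 to 214.9 kb away, and 5 of them were with other baits. Those at all 4 timepoints were the bait of Pip5kl1 and 9430097D07Rik, with 6.55 (ZT0), 7.84 (ZT6), 8.47 (ZT12) and 9.14 (ZT18), and the bait of Dpm2, a subunit gene of dolichol phosphate mannose synthase, with 8.82, 7.09, 7.97 and 6.06. The former was highest at ZT18 and the latter at ZT0. The other 5 were listed at 1 timepoint each with at most 5.8. Among them were St6galnac4, a sialyltransferase gene (5.55 at ZT6 at the bait with its start), and the start of Fam102a (5.37 at ZT0). The Dpm2 bait also holds an exon of Fam102a. Fam102a and St6galnac6 (5.32 at ZT18) were the only genes of the circadian list given with the study to have a start on a contacted fragment. Of the 10 members 0 were on that list, which has a gene start on 6.15% of all baits. The bait of 1110008P14Rik, next to that of Lcn2, had the most similar contacts, with 5 fragments in common (71.4% of those of Lcn2 and 45.5% of its own). The baits of Fam102a and Fpgs followed with 3 each, out of 13 and 15 of their own.

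Motifs of factors known from acute phase and clock genes were searched on both strands in windows from 250 bases before to 50 after the start. The letters TTCNNNGAA (STAT) were found 97 bases before the start of Hamp and 244 before that of Apcs, and in 8.3% of 32851 windows of the RefSeq table. The letters TTGCNNAA (C/EBP) were found 182 bases before Saa1, 245 and 52 before Saa4, 216 before Lcn2 and 200 before Hpx, and in 10.8% of all windows. GGNNTTTCC (NF-kB) was in none of the windows of Saa1, Saa4, Crp, Lcn2, Hpx, Hamp and Tfrc and in 5.82% of all. Only this spelling was searched, so close forms were not counted. The Saa1 window shown above holds ggagttttcc, which differs from it by a further T. The E-box CACGTG was likewise in none of the windows of these members and in 7.15% of all. Of the contacted genes only Apcs, Ldha, Tat and Smpd1 were searched. Among them the E-box was found 145 and 48 bases before a RefSeq start of Ldha. A match or its absence says nothing on binding in these livers. Windows for Hp, Trf, Slc40a1 and Usf2 are not in the table.

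**Figure D5:**
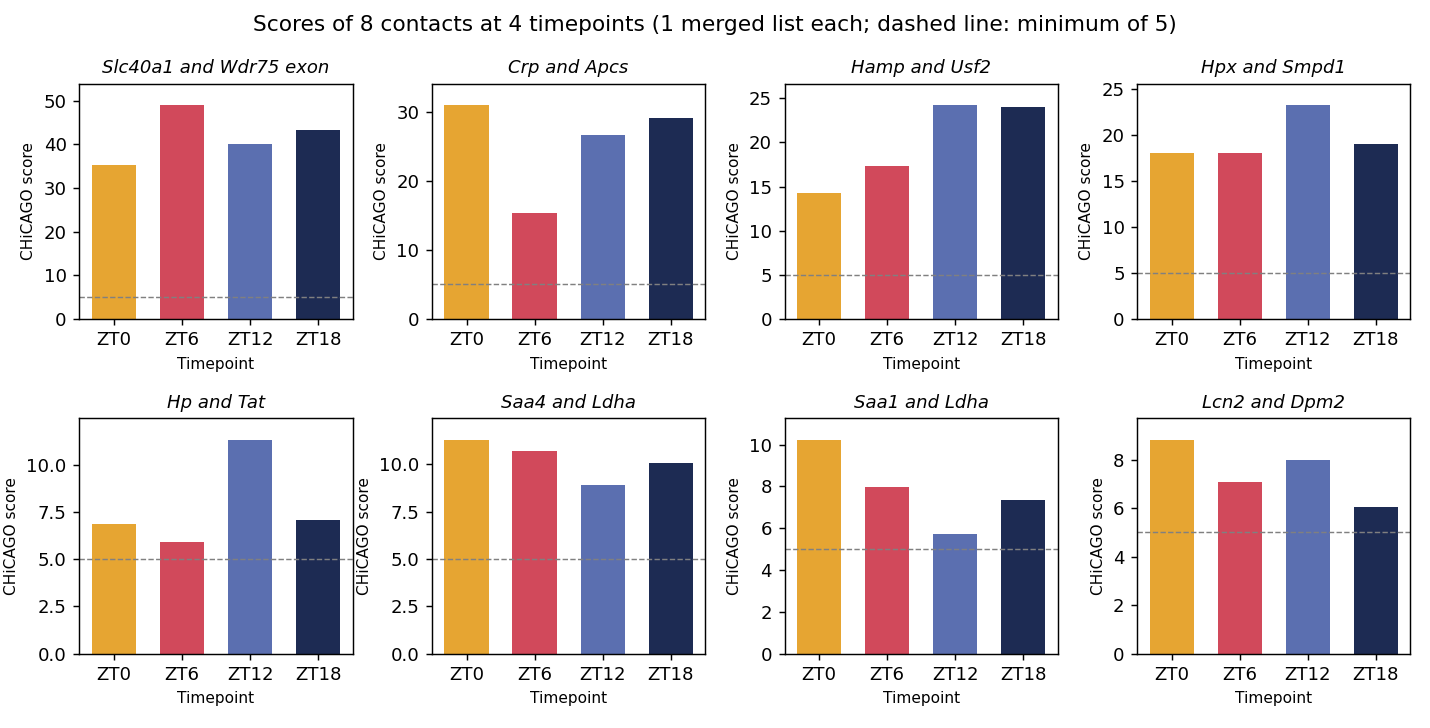
CHiCAGO scores (vertical axes, each panel with its own scale from 0) at 4 timepoints of 8 contacts, 1 merged list per bar and without replicate error; the dashed line is the minimum of 5. Crp with Apcs is lowest at ZT6 (15.35), Hamp with Usf2 is highest at ZT12 and ZT18 (24.24 and 24.02), and Hp with Tat is highest at ZT12 (11.33).

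The times of highest score were spread over the day. Of the 82 member contacts listed at all 4 timepoints, ZT6 was the highest for 28, ZT12 for 25, ZT0 for 17 and ZT18 for 12. Over all interactions listed at 4 timepoints the shares were 26.1% at ZT6, 25.6% at ZT12, 22.0% at ZT0 and 26.0% at ZT18, beside 34.1%, 30.5%, 20.7% and 14.6% for the members. The 28 at ZT6 hold the 18 of Slc40a1 and the 25 at ZT12 the 14 of Hpx. Of the 51 contacts listed at 1 timepoint only, 16 came from ZT0, 15 from ZT18, 13 from ZT12 and 7 from ZT6. Over all interactions listed at 1 timepoint 23.3% were at ZT0, 24.1% at ZT18, 24.3% at ZT12 and 28.3% at ZT6, beside 31.4%, 29.4%, 25.5% and 13.7% for the members.

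Genes of the same pathways were set beside the members as 3 lists. The first had 18 acute phase genes such as Apcs, the fibrinogen genes and Serpina3n, the second 10 genes that signal to them such as Il6ra, Stat3 and Cebpb, and the third 18 iron genes such as Fth1, Hfe and Bmp6. Of these 46 genes 35 started on a bait of the lists. Their numbers of contacts had medians of 28, 17.5 and 29.5, against 14 for the members, and the median shares at all 4 timepoints were 33.3%, 40.0% and 31.2%, against 29.7%. Among all these promoters, members included, 6 contacts joined baits of different genes, and all 6 were listed at 4 timepoints. They were Fgg with Fgb, Fgg with Fga, Fga with Fgb, Itih4 with Itih3, the bait of Saa3 and Saal1 with Saa2, and Crp with Apcs. Each joins genes of 1 family or cluster, and at 201.6 kb Crp with Apcs spans the longest distance, beside 19.9 to 43.1 kb for the others. No member was listed with a gene of the signalling or the iron list.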

How the data were processed

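P-CHi-C pairs were mapped to mm9 with HiCUP and filtered, the pools of a timepoint merged, and interactions called with CHiCAGO by the authors. The deposited values are CHiCAGO scores of at least 5, 1 list per timepoint, without counts, so the depth behind a score is unknown here and a deeper list can hold more pairs. Pairs were read without direction from the 4 lists in python 3.11.15 (pandas 2.3.3, numpy 2.4.6). Baits were fragments listed first at any timepoint. Gene starts came from GENCODE vM1 (mm9). Distances run between fragment midpoints. Wilson intervals (95%) used scipy 1.17.1, and baits were aligned with blastn 2.17.0, with stretches of at least 500 bases kept. Counting was tested on simulated lists.

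The members and gene lists were chosen with earlier results of these data known. Named were the 5 contacts of each member with the highest score, gene starts on baits contacted at 3 or 4 timepoints, contacts to genes of the lists, the highest contact at 1 timepoint only, and the 3 baits with the largest Jaccard share (at least 3 shared fragments); contacts and genes beyond these were named after their values were seen. Baits of a similar number of contacts were within 20%, and interactions of similar distance within 10%. Other settings tried were minimum scores of 7 and 10, starts of any transcript, equal numbers of top pairs, a tolerance of 10 kb, the gap between fragments, baits of the same timepoint, the other order of lists and contacts per 10000 interactions.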

Additional observations from a re-analysis of the deposited data

How the results depend on the processing

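No paired analysis was possible because each timepoint has a single merged list, and for the same reason no pool could be left out. Of 62 values under alternatives, 42 stayed within 1.5 times the reported count or within the interval of the reported share or median. Starts of any transcript, equal numbers of top pairs, the gap between fragments, baits of the same timepoint and contacts per 10000 interactions changed none beyond this. The other order of the lists only exchanged nearly equal group counts between labels, so it could not change them beyond this. Times named for single promoters and contacts were not re-examined under that order and rest on the labels. At a score of at least 7 the contacts from ZT0 to ZT18 were 63, 75, 76 and 70, and 15.1% spanned over 150 kb (all interactions 50.5%). At a score of at least 10 they were 35, 41, 37 and 35, of which 58.0% were at all 4 timepoints and 12.0% spanned over 150 kb (all interactions 34.6% and 48.3%). Fewer contacts at a higher minimum follow from its construction. With a tolerance of 10 kb, which can only raise it, the share at all 4 was 75.1%. Chosen after seeing the data, leaving out Slc40a1 and Hpx gave 56, 51, 55 and 53 contacts, 27.2% at all 4 and 28.3% with a bait at the far end. For the 28.3%, too, the 15.4% of all interactions is too low a background. Leaving out Slc40a1 alone gave 34.7% at all 4, and the mean over promoters was 32.4%. The 6 contacts between promoters of the lists all remained at a score of at least 10 at some timepoint.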
